A study of Mus musculus with 12 samples.

Results

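Autophagy and lysosome genes of 2 mouse striatal cell lines were followed through a heat shock. The set holds 32 genes chosen by function: the initiation kinases, the lipid kinase complex, proteins of the growing membrane, the conjugation enzymes, the Atg8 family, cargo receptors, a ubiquitin gene, lysosomal proteins and a transcription factor of lysosomal genes. The choice was made with earlier results of these data known. Of the 32 genes, 29 were measured by 75 probe sets that name no other gene, out of 18193 genes in all. The brightest probe set of a gene, by its mean across the 12 arrays, stands for it. The cargo receptors Optn and Bnip3l and the ubiquitin gene Ubb are not analysed here, so the ubiquitin role has no measured member.

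Total RNA was profiled on Affymetrix arrays in 4 groups of 3 arrays each. The STHdhQ111/Q111 line (Q111 cells) carries a knock-in huntingtin gene with an expanded polyglutamine tract, the kind of change behind Huntington's disease, and was profiled after 6 h at 42 °C and at 33 °C. The STHdhQ7/Q7 line (Q7 cells) carries huntingtin of wild-type length and was profiled after the same heat shock and at 33 °C. Both lines came from the striatum of embryonic mice and grew at 33 °C in 10% serum and 5% CO2 with G418 at 400 µg/ml, up to passage 15. Lines of this kind are known to be kept at low temperature because a heat-sensitive T antigen drives their growth. There is 1 line per genotype, so genotype and other differences between the lines cannot be told apart. The labels do not say whether replicates are separate cultures, and p-values therefore rest on a spread among arrays that may be technical alone. In bulk RNA, fewer cells of a type and less RNA per cell cannot be told apart.

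Autophagy encloses cytoplasm in a membrane-bound vesicle, the autophagosome, and delivers it to the lysosome for digestion. The ULK kinase complex starts the process, the lipid kinase complex of Becn1 and Pik3c3 marks the membrane with a phospholipid, and conjugation enzymes attach Atg8 proteins to the growing membrane. Cargo receptors bind ubiquitinated cargo and Atg8 proteins together, and TFEB raises transcription of many lysosomal and autophagy genes. The pathway clears misfolded proteins and is much studied for mutant huntingtin.

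Levels are on the log2 scale as deposited. Changes and differences are between group means on that scale, each with limma's standard error (SE). A gene is called where its p-value, adjusted by Benjamini-Hochberg over all 18193 genes, was under 0.05. Every measured member had a mean level above 5.14, the highest value that 27 control probe sets reached on any array without their bacterial RNA having been spiked in. Member means ran between 6.33 for Tfeb and 12.96 for Lamp1. As checks, Hspa1a, an inducible heat shock chaperone, was higher after heat shock by 6.48 in Q111 cells and by 5.48 in Q7 cells, and the difference in Htt itself at 33 °C, Q111 minus Q7 cells, was -1.29. Over the arrays of both lines together, all 10 neural progenitor markers had a mean above background range. Of 9 striatal projection neuron markers 4 did, and Drd2, Gad1 and Gad2 were above it on no array. Progenitor markers differed between the lines. At 33 °C 4 of the 10 were called lower in Q111 than in Q7 cells and 1 higher, with differences down to -5.89. Of all genes 5.68% were called lower and 5.11% higher there. After heat shock 6 were called lower and 1 higher, beside 15.5% and 6.58% of all genes. The mean over both lines therefore does not show that each line had all 10 above background range.

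Heat shock in Q111 cells called 19 of the 29 members, 8 higher and 11 lower. Of all genes 20.0% were called higher and 28.2% lower in that comparison. In Q7 cells 14 members were called, 10 higher and 4 lower, where 12.3% of all genes were called higher and 18.1% lower. The median change of the members was 0.13 in Q111 cells and 0.24 in Q7 cells, beside -0.02 and 0.00 for all genes. Thus 34.5% of the members were called higher in Q7 cells, above that background, while the members' share called lower in Q7 cells, 13.8%, was below it. In Q111 cells the shares were 27.6% higher and 37.9% lower, both above those over all genes. Because the members were chosen with earlier results of these data known, these shares describe the genes listed and test nothing. The shares over all genes include 5990 genes with a mean in background range, of which 5.2% were called lower in Q111 cells. No member lies there. Among the 9097 genes at or above the median level, tested alone, 1627 were called higher and 3940 lower in Q111 cells. Of the 27 members there 9 were called higher and 9 lower, a smaller share lower than among those genes. In Q7 cells 1839 genes were called higher and 2635 lower, with 12 and 3 of the members. The 2 heat shock comparisons share no array in their group means, while the spread of each gene was estimated from all 12 arrays. Scaling moves these splits: setting the gene median of every array equal brought the median change of all genes to 0.71 in Q111 cells and 0.35 in Q7 cells and gave 17 higher and 7 lower in Q111 cells and 18 and 3 in Q7 cells. Centring on ribosomal protein genes moved that median to -0.30 and -0.19 and gave 4 higher and 12 lower in Q111 cells and 5 and 7 in Q7 cells. No member was called in opposite directions under the deposited scale and these centrings. Atg3, Atg5, Atg12, Map1lc3b, Gabarapl1, Gabarapl2 and Lamp2 were called higher in both lines, and Ulk2, Pik3c3, Wipi1 and Atg4b were called lower in both.

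**Figure D1:**
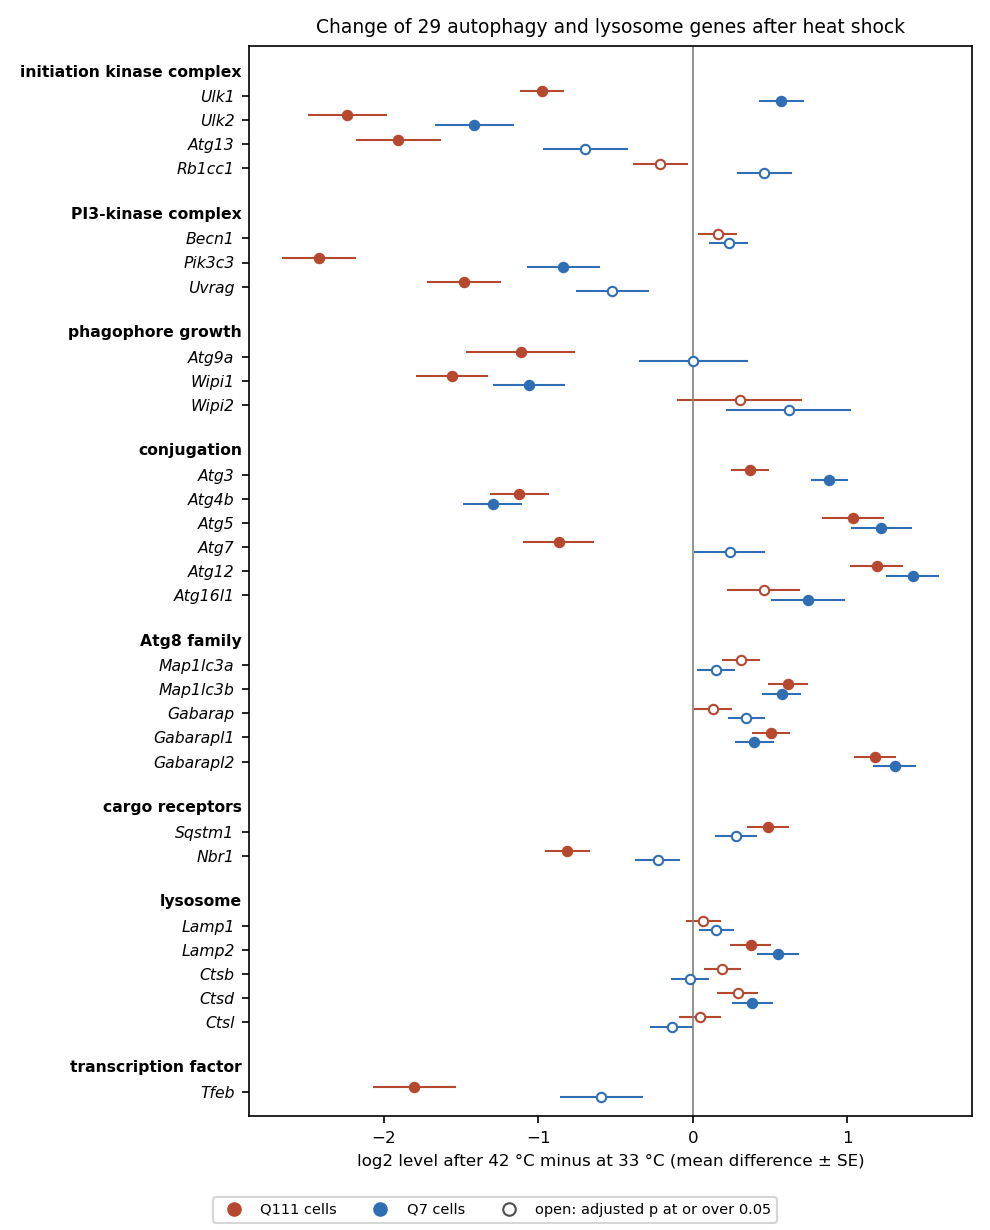
Change of each measured member after heat shock, as log2 level after 42 °C minus at 33 °C on the horizontal axis, in Q111 cells (red) and Q7 cells (blue), grouped by role. Points are mean differences, bars are SE, and filled points are called. Pik3c3 in Q111 cells (-2.42) lies furthest left, and all points of the Atg8 family lie right of 0.

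In the initiation complex 3 of 4 members were called lower in Q111 cells, all with a mean level between 7 and 9. Of all genes in that range of level 56.1% were called lower in those cells. Ulk1, the kinase that starts autophagy, was called in opposite directions in the lines on the deposited scale. Ulk1 read 8.39, 7.98 and 7.99 in heat-shocked Q111 cells, against 9.03, 9.24 and 9.02 at 33 °C. In Q7 cells it read 9.48, 9.34 and 9.45 after heat shock, against 8.74, 8.95 and 8.86 at 33 °C. The arrays overlapped between temperatures in neither line. The change was -0.98 (SE 0.14, adjusted p = 0.000294) in Q111 cells and 0.57 (SE 0.14, adjusted p = 0.0107) in Q7 cells. The test of the difference between these changes gave -1.55 (SE 0.20, adjusted p = 0.00316). Centring on the gene median ended the Q111 call (-0.25, adjusted p = 0.163) and centring on ribosomal protein genes the Q7 call (0.39, adjusted p = 0.0535), while the difference was called under both (-1.18 and -1.64). A second, dimmer probe set of Ulk1 kept both signs but was called in neither line, with -0.35 in Q111 cells and 0.16 in Q7 cells, and its difference was -0.50 (adjusted p = 0.263).

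Ulk2, a close relative of Ulk1, fell in both lines. It read 6.07, 5.82 and 5.55 in heat-shocked Q111 cells, against 8.32, 7.79 and 8.04 at 33 °C. Its levels in Q7 cells were 6.77, 5.94 and 6.57 after heat shock, against 8.23, 7.81 and 7.48 at 33 °C. All heat-shocked arrays lay below all arrays at 33 °C, with changes of -2.24 (SE 0.26) in Q111 cells and -1.41 (SE 0.26) in Q7 cells. Of its 3 other probe sets above background range, 2 were called lower in both lines. Atg13, which bridges the kinase to the rest of the complex, read 6.86, 7.14 and 6.04 in heat-shocked Q111 cells, against 8.45, 8.67 and 8.64 at 33 °C. That fall of 1.91 on the log2 scale (SE 0.27) was called, and in Q7 cells the change was -0.70 (adjusted p = 0.0785). Rb1cc1, the scaffold also known as FIP200, was called in neither line, with -0.21 in Q111 cells and 0.46 in Q7 cells.

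In the lipid kinase complex the catalytic subunit Pik3c3 fell in both lines, Uvrag fell in Q111 cells and Becn1 was called in neither line. Pik3c3, the kinase also known as Vps34, read 6.81, 6.89 and 6.47 in heat-shocked Q111 cells, against 8.81, 9.19 and 9.44 at 33 °C. Q7 cells gave 8.34, 7.79 and 8.36 after heat shock, against 8.59, 9.30 and 9.11 at 33 °C. The groups did not overlap in either line, and the fall was the larger in Q111 cells. The changes were -2.42 (SE 0.24, adjusted p = 2.4e-05) in Q111 cells and -0.84 (SE 0.24, adjusted p = 0.0205) in Q7 cells. Their difference, -1.58 (SE 0.34, adjusted p = 0.0228), was called, but without any 1 of 4 arrays it was not. These were Q111 cells at 33 °C replicates 2 and 3 and heat-shocked Q7 cells replicates 1 and 3, and the adjusted p without them was 0.0585, 0.0534, 0.0639 and 0.0722. Pik3c3 has a single probe set here.

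Uvrag, which joins Becn1 and Pik3c3 in a complex that acts on endosomes, fell in Q111 cells by 1.48 on the log2 scale (SE 0.24). Its arrays there read 8.13, 8.24 and 7.32, against 9.16, 9.37 and 9.61 at 33 °C. The Q7 change, -0.52, was not called (adjusted p = 0.125). Becn1, a regulatory subunit, had changes of 0.16 in Q111 cells and 0.23 in Q7 cells, neither of them called. A much dimmer probe set of Becn1, with a mean of 5.71, was lower in both lines (-1.69 and -1.38), so the gene's probe sets disagree.

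Among proteins of the growing membrane Wipi1 was lower in both lines. Wipi1, which binds the phospholipid that Pik3c3 makes, read 8.996, 8.13 and 7.98 in heat-shocked Q111 cells, against 9.87, 10.07 and 9.83 at 33 °C. In Q7 cells it read 8.26, 7.91 and 8.07 after heat shock, against 8.99, 9.20 and 9.23 at 33 °C. Neither line had overlapping arrays, and the changes were -1.56 (SE 0.23) and -1.06 (SE 0.23). Of 4 further probe sets of Wipi1, 3 were called lower in both lines. Atg9a, the membrane protein carried on Atg9 vesicles, read 8.79, 7.53 and 6.98 in heat-shocked Q111 cells, against 8.83, 9.10 and 8.72 at 33 °C. The first of these arrays lay within the 33 °C range, and the change of -1.11 (SE 0.35, adjusted p = 0.0229) was not called without replicates 2 or 3 of that group or replicate 2 at 33 °C. The adjusted p was then 0.0653, 0.0744 and 0.0763. In Q7 cells its change was 0.00. Wipi2, which recruits Atg16l1, was called in neither line, and its second probe set fell in Q111 cells (-1.09, adjusted p = 0.0312).

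**Figure D2:**
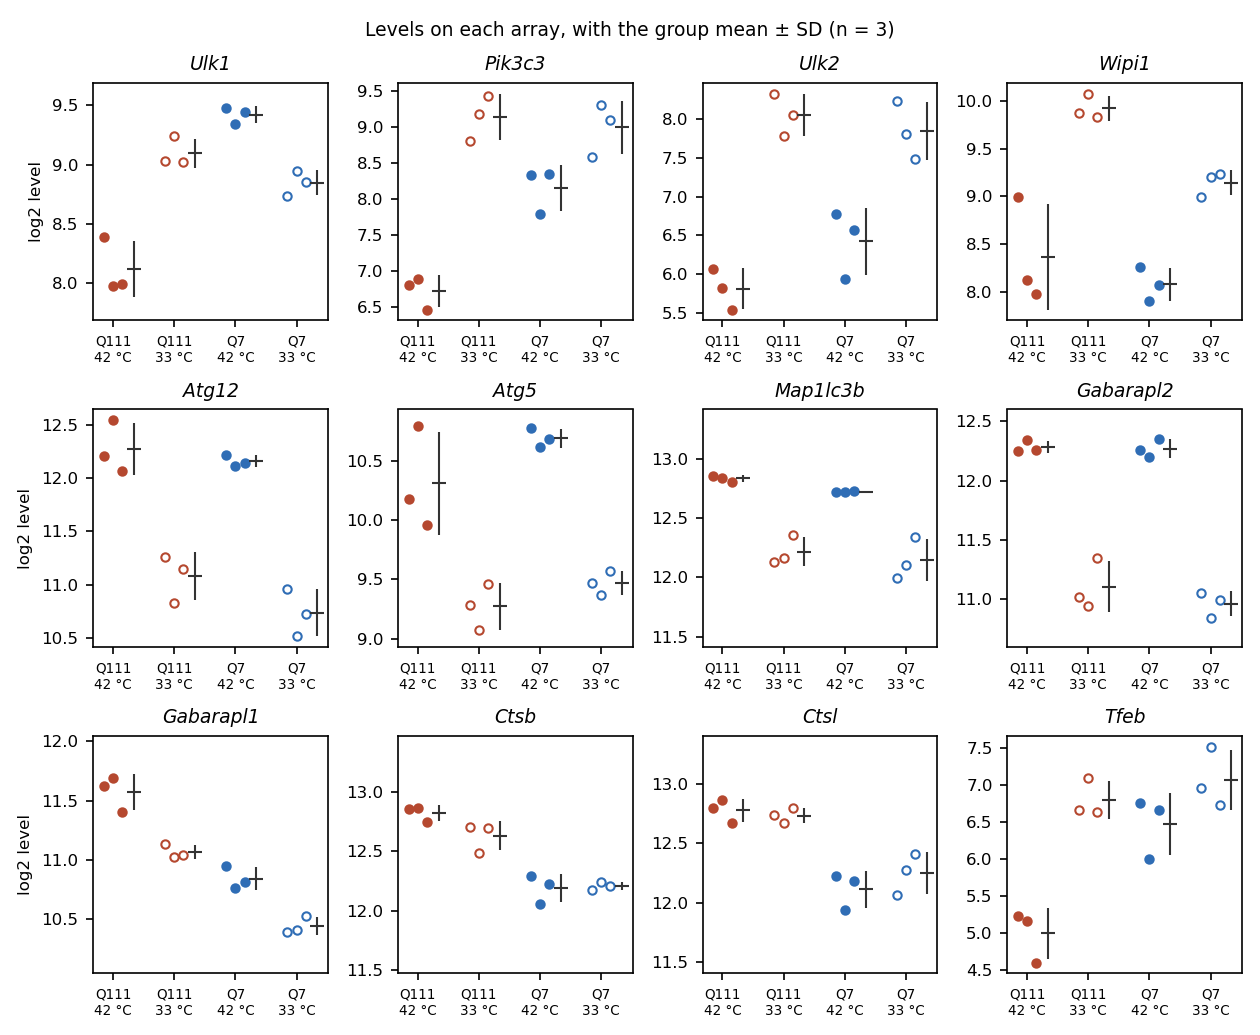
Log2 levels of 12 members on each array (vertical axis), by group from left to right: Q111 cells at 42 °C and 33 °C, then Q7 cells at 42 °C and 33 °C. Filled points are heat-shocked arrays, open points arrays at 33 °C, and dashes with bars are the mean ± SD of 3 arrays. Ulk1 lies below its 33 °C arrays in heat-shocked Q111 cells and above them in heat-shocked Q7 cells.

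The conjugation enzymes split. The complex that attaches Atg8 proteins to the membrane is built of Atg5, Atg12 and Atg16l1, and Atg12 and Atg5 were among the members that rose most. Atg12, a ubiquitin-like protein, read 12.20, 12.54 and 12.06 in heat-shocked Q111 cells, against 11.26, 10.83 and 11.15 at 33 °C. Its Q7 arrays read 12.22, 12.11 and 12.14 after heat shock, against 10.96, 10.52 and 10.73 at 33 °C. Heat-shocked arrays lay above all 33 °C arrays of their line, with changes of 1.19 (SE 0.17) in Q111 cells and 1.42 (SE 0.17) in Q7 cells. A second Atg12 probe set was called higher in both lines, by 1.99 and 1.74. The difference between the lines' changes was -0.23 (SE 0.24, adjusted p = 0.628).

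Atg5, the partner to which Atg12 is joined, read 10.17, 10.79 and 9.96 in heat-shocked Q111 cells, against 9.28, 9.07 and 9.46 at 33 °C. In Q7 cells the levels were 10.77, 10.62 and 10.68 after heat shock, against 9.47, 9.37 and 9.57 at 33 °C. The rise was 1.04 (SE 0.20) in Q111 cells and 1.22 (SE 0.20) in Q7 cells, without overlap. Other Atg5 probe sets at similar levels gave 0.66 and 0.33 in Q111 cells and 0.45 and 0.26 in Q7 cells, none of them called. Atg16l1, the membrane-binding part, rose by 0.75 in Q7 cells (SE 0.24, adjusted p = 0.0339), and its change of 0.46 in Q111 cells was not called.

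Atg3, the enzyme that hands Atg8 proteins to the lipid, rose in both lines on the deposited scale. Its levels were 10.60, 10.65 and 10.60 in heat-shocked Q111 cells, against 10.10, 10.27 and 10.36 at 33 °C, and 11.32, 11.14 and 11.12 in heat-shocked Q7 cells, against 10.23, 10.36 and 10.33 at 33 °C. The changes were 0.37 (SE 0.12, adjusted p = 0.0258) and 0.88 (SE 0.12, adjusted p = 0.000287), and with ribosomal protein centring the Q111 change was 0.09 and not called (adjusted p = 0.529). Atg7, the enzyme that activates Atg8 proteins and Atg12, fell in Q111 cells by 0.87 on the log2 scale (SE 0.23, adjusted p = 0.00965). Its Q7 change of 0.24 was not called, and the test of the difference did not pass (-1.11, adjusted p = 0.0736). A second Atg7 probe set was lower in both lines (-2.58 and -2.48), so no direction is settled for this gene in Q7 cells.

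Atg4b, the protease that trims Atg8 proteins and releases them from lipid, fell at its brightest probe set. That probe set read 7.81, 8.24 and 7.46 in heat-shocked Q111 cells, against 8.92, 9.02 and 8.93 at 33 °C, and 8.29, 7.83 and 8.15 in heat-shocked Q7 cells, against 9.35, 9.46 and 9.34 at 33 °C. The arrays did not overlap, with changes of -1.12 (SE 0.19) and -1.30 (SE 0.19). The other Atg4b probe set gave -0.16 in Q111 cells, not called, and was higher in Q7 cells (0.93, adjusted p = 0.0470). The direction for Atg4b in Q7 cells therefore depends on the probe set.

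The Atg8 family, whose lipid-bound forms coat the autophagosome, had positive changes for 5 of 5 members in both lines, and 3 of 5 were called higher in each. Of all genes 20.0% in Q111 cells and 12.3% in Q7 cells were called higher, and of genes with a level above 11, where 4 of the 5 lie, 25.6% and 21.0% were. Map1lc3b, the member whose protein LC3B is the usual autophagosome marker, read 12.86, 12.84 and 12.81 in heat-shocked Q111 cells, against 12.13, 12.17 and 12.36 at 33 °C. In Q7 cells its levels were 12.72, 12.72 and 12.73 after heat shock, against 11.996, 12.10 and 12.34 at 33 °C. The heat-shocked arrays were tight and above all others of their line. The changes were 0.62 (SE 0.13, adjusted p = 0.00239) in Q111 cells and 0.57 (SE 0.13, adjusted p = 0.00528) in Q7 cells, and 2 further probe sets were called higher in both lines.

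Gabarapl2, also known as GATE-16, had the largest change of the family. It read 12.25, 12.35 and 12.26 in heat-shocked Q111 cells, against 11.02, 10.94 and 11.35 at 33 °C. Q7 cells gave 12.26, 12.20 and 12.35 after heat shock, against 11.05, 10.85 and 10.99 at 33 °C. The rises were 1.18 (SE 0.14, adjusted p = 6.24e-05) and 1.31 (SE 0.14, adjusted p = 5.25e-05), and the lines ended at the same level within their spread. A dimmer Gabarapl2 probe set went the other way, with -0.15 in Q111 cells, not called, and -0.50 in Q7 cells (adjusted p = 0.0340).

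Gabarapl1, a GABARAP relative induced by starvation in other cells, rose by 0.51 in Q111 cells (SE 0.12) and by 0.40 in Q7 cells (SE 0.12, adjusted p = 0.0311). Its second probe set gave 0.57, called, and 0.40, not called (adjusted p = 0.0736). Map1lc3a had changes of 0.31 in Q111 cells (adjusted p = 0.0573) and 0.15 in Q7 cells. Gabarap itself, a bright and widely expressed member, had 0.13 and 0.35, with adjusted p = 0.388 and 0.0506. None of the family's 5 tests of a difference between the lines' changes passed.

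The measured cargo receptors were called in opposite directions in Q111 cells on the deposited scale. Sqstm1, the receptor p62, read 12.21, 12.21 and 12.005 in heat-shocked Q111 cells, against 11.52, 11.66 and 11.78 at 33 °C. The rise of 0.49 (SE 0.14, adjusted p = 0.0125) was called, and the Q7 change of 0.28 was not. A dimmer Sqstm1 probe set gave -0.10 in Q111 cells, not called, and 1.40 in Q7 cells, called (adjusted p = 0.0121), so its probe sets disagree on which line changed. Nbr1, a receptor that binds ubiquitin and Atg8 proteins like p62, read 11.10, 10.64 and 11.12 in heat-shocked Q111 cells, against 11.89, 11.66 and 11.76 at 33 °C. It fell by 0.81 on the log2 scale (SE 0.15, adjusted p = 0.00101), and its second probe set fell too (-0.73). With the gene medians equal the Nbr1 change in Q111 cells was -0.09 and not called (adjusted p = 0.721), and with ribosomal protein centring that of Sqstm1 was 0.21 (adjusted p = 0.187). The Q7 change of -0.23 was not called, and the difference between the lines, -0.59, did not pass (adjusted p = 0.128).

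Lysosomal members had small changes. Lamp2, a membrane glycoprotein needed for fusion with autophagosomes and for chaperone-mediated autophagy, read 12.13, 12.13 and 12.34 in heat-shocked Q111 cells, against 11.80, 11.92 and 11.76 at 33 °C. In Q7 cells it read 11.94, 11.96 and 11.96 after heat shock, against 11.48, 11.17 and 11.55 at 33 °C. It rose by 0.37 (SE 0.13, adjusted p = 0.0388) and 0.55 (SE 0.13, adjusted p = 0.00884), and of 4 Lamp2 probe sets above background range 4 were called higher in Q111 cells and 2 in Q7 cells. With ribosomal protein centring neither Lamp2 change was called (0.10, adjusted p = 0.576, and 0.37, adjusted p = 0.0585). Ctsd, an aspartic protease, rose in Q7 cells by 0.38 (adjusted p = 0.0479), and its change of 0.29 in Q111 cells was not called. Lamp1 and the cysteine proteases Ctsb and Ctsl were called in neither line, with changes between -0.14 and 0.19. For Ctsb this held at the brightest probe set, while 1 of the 3 dimmer ones was called higher and 1 lower in Q111 cells, and 2 were called lower in Q7 cells.

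Tfeb, the transcription factor, was the dimmest member. It read 5.22, 5.15 and 4.60 in heat-shocked Q111 cells, against 6.65, 7.09 and 6.63 at 33 °C. Its Q7 levels were 6.76, 5.99 and 6.66 after heat shock, against 6.95, 7.51 and 6.72 at 33 °C. Of the heat-shocked Q111 arrays 1 lay within background range and the other 2 just above it, with a group mean of 4.99, so background limits the size of differences from that group. The Q7 groups overlapped. The fall of 1.80 on the log2 scale (SE 0.27, adjusted p = 0.00032) was called in Q111 cells, whereas -0.59 in Q7 cells was not (adjusted p = 0.125). The difference between them, -1.21, did not pass (adjusted p = 0.0923).

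Promoter windows, 250 bases before to 50 after the annotated start in RefSeq on GRCm38.p6, were found for 24 of the 32 genes (28 windows). The CLEAR core TCACGTGA, to which TFEB binds, lay in 2 members, Atg3 and Ctsd, and in 0.974% of all 32851 windows. The E-box CACGTG, which the CLEAR core contains, lay in 6 members (Atg3, Atg5, Atg7, Lamp1, Ctsd and Ctsl) and in 7.15% of all windows. Both motifs read the same on either strand. A heat shock element of 3 units was matched in 0 member windows and in 0.603% of all windows. Of its shorter forms TTCNNGAA occurred in Atg13 and in 8.52% of windows, and GAANNTTC in Optn and in 7.86%. The windows of Hspa1a, the heat shock check above, and of Hspb1, another heat shock gene, also held no 3-unit match, only GAANNTTC. A window without a match therefore does not set a member apart from heat-induced genes. Windows are printed for genes with the motif that were called higher in at least 1 line (Atg3, Atg5, Ctsd) and in Lamp1, which holds 4 E-boxes and was called in neither, with E-boxes and CLEAR cores in capitals. They are chr16:45158579-45158878 on the plus strand for Atg3, chr10:44268089-44268388 plus for Atg5, chr7:142387778-142388077 minus for Ctsd and chr8:13158911-13159210 plus for Lamp1.
Atg3: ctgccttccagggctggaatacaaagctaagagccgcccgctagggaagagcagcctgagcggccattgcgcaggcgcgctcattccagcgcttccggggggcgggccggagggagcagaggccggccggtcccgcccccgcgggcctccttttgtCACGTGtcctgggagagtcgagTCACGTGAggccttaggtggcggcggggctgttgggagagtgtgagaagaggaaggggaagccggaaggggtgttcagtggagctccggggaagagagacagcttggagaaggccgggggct
Atg5: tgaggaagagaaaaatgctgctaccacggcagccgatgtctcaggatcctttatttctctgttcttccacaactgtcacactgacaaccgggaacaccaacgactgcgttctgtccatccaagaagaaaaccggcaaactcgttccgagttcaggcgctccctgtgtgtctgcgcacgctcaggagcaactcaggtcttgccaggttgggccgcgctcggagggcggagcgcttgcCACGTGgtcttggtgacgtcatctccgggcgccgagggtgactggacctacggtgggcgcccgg
Ctsd: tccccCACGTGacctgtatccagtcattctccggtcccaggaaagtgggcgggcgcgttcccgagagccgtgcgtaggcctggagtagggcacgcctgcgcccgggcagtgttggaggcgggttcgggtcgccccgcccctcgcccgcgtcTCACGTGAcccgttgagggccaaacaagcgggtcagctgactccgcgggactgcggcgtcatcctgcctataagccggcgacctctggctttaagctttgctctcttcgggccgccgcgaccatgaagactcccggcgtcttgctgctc
Lamp1: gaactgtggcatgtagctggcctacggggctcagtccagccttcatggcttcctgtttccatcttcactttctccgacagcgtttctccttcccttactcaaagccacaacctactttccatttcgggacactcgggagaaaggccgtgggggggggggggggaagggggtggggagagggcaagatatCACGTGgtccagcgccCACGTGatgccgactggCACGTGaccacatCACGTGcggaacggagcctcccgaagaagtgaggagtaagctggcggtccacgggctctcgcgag
Counted from the start, the CLEAR core began at position -72 in Atg3 and -99 in Ctsd, and the Atg5 E-box at -14. Of the 6 members with an E-box, Atg3 and Atg5 were called higher in both lines and Ctsd in Q7 cells. Atg7 was called lower in Q111 cells, and Lamp1 and Ctsl were called in neither line. Map1lc3b, Gabarapl1, Gabarapl2 and Lamp2, also called higher in both lines, hold none of these motifs in their windows. Whether motif and call are linked was not tested.

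Centring ended further heat shock calls. With the gene medians equal these were Atg9a (-0.39, adjusted p = 0.259) and Atg7 (-0.14, adjusted p = 0.497) in Q111 cells and Pik3c3 (-0.49, adjusted p = 0.0714) in Q7 cells. With ribosomal protein centring they were Gabarapl1 in Q111 cells (0.23, adjusted p = 0.136) and in Q7 cells (0.21, adjusted p = 0.209), and Atg16l1 (0.56, adjusted p = 0.0847) and Ctsd (0.20, adjusted p = 0.287) in Q7 cells.

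Levels and changes went together over all genes. Genes with a mean level between 7 and 9 had a median change of -0.89 in Q111 cells and -0.34 in Q7 cells, and 56.1% and 30.4% of them were called lower. Among the 10 members in that range 9 were called lower in Q111 cells and 4 in Q7 cells, with 0 and 2 called higher. For genes above 11 the median change was 0.03 in Q111 cells and 0.02 in Q7 cells. The 13 members there included 5 called higher in each line and 1, Nbr1, called lower in Q111 cells. Most members that fell thus lay at levels where genes of all kinds fell. Against the quartiles of all genes of like level, 7 members lay below the lower quartile in Q111 cells (Ulk2, Atg13, Pik3c3, Uvrag, Wipi1, Nbr1 and Tfeb) and 8 above the upper one. In Q7 cells 3 lay below (Ulk2, Wipi1 and Atg4b) and 12 above. By construction about 1 in 4 of all genes lies below the lower quartile and 1 in 4 above the upper. The Q111 counts are near that share of the members, while in Q7 cells fewer lay below and more above. Atg5, Atg12, Atg16l1, Map1lc3b, Gabarapl2 and Wipi2 were above in both lines, and Ulk1 was within the quartiles in Q111 cells and above them in Q7 cells.

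**Figure D3:**
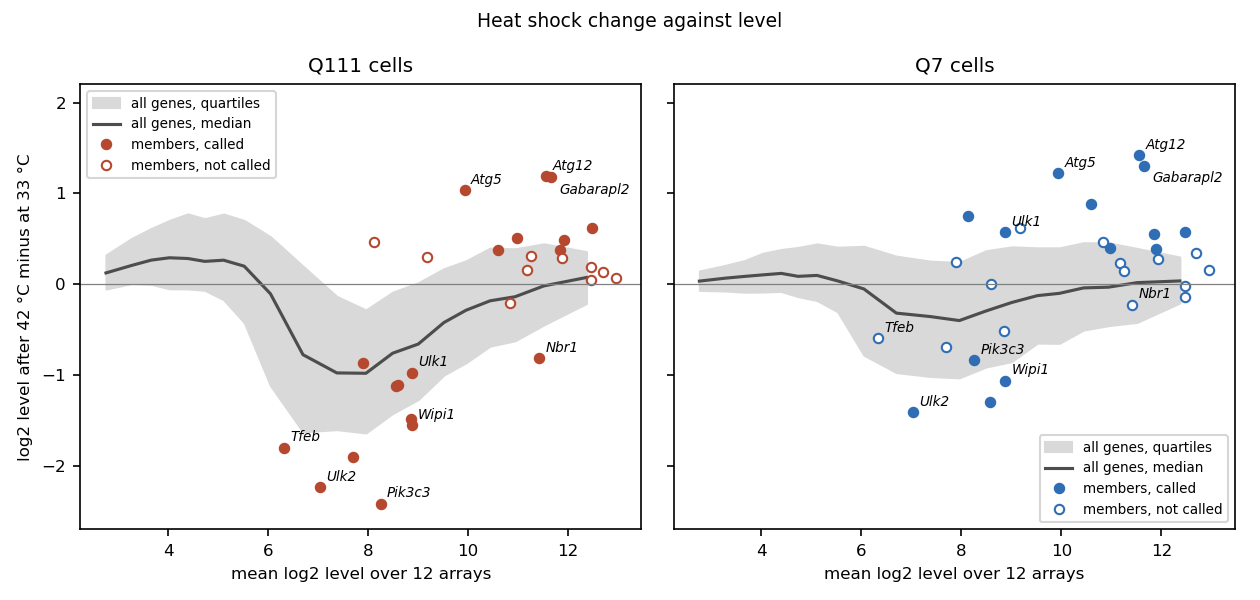
Heat shock change (log2, vertical axis) against the mean log2 level over 12 arrays (horizontal axis) in Q111 cells (left) and Q7 cells (right). The line and band are the median and quartiles of all genes in bins of level, and points are members, filled where called. The median of all genes is lowest near level 8, at -0.98 in Q111 cells, and members there lie on both sides of the band, Atg16l1 (8.13) above it in both lines and Pik3c3 (8.26) below it in Q111 cells.

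An RNA measure also moved with heat shock. The log2 level of the 3′ minus the 5′ actin control probe sets, which grows as 5′ sequence is lost from the labelled RNA, was 1.25 ± 0.23 in heat-shocked Q111 cells and 0.72 ± 0.36 in Q111 cells at 33 °C (SD, n = 3 each). It was 1.48 ± 0.12 in heat-shocked Q7 cells and 0.54 ± 0.16 in Q7 cells at 33 °C. The Q7 ranges did not overlap, so this measure and heat shock cannot be told apart in Q7 cells. With it as a covariate 14 members were called in Q111 cells, 5 higher and 9 lower, and in Q7 cells 1 was (Gabarapl2, 1.39, adjusted p = 0.0361). Several Q7 changes that lost their call kept about their size with the covariate: Atg12 had 1.57, Atg5 1.35, Atg3 0.93, Map1lc3b 0.68 and Atg4b -1.32. Others were smaller, with Ulk2 at -0.89, Wipi1 at -0.61, Pik3c3 at -0.60 and Lamp2 at 0.26. Ulk1 remained called in Q111 cells (-0.91) and in the difference between the lines (-1.60, adjusted p = 0.0139), whereas the difference for Pik3c3, -1.69, was not (adjusted p = 0.0598).

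Probe sets of the same gene often gave different calls. In Q111 cells 15 of the 19 called members had other probe sets above background range. All of these had the same call for 6 members, at least 1 was not called for 9, and none was called in the opposite direction. In Q7 cells 11 of 14 had others, 2 with the same call throughout, 7 with at least 1 not called and 2, Atg4b and Gabarapl2, with an opposite call. Probe sets may read different transcript ends of a gene, and which transcripts each reads was not tested.

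**Figure D4:**
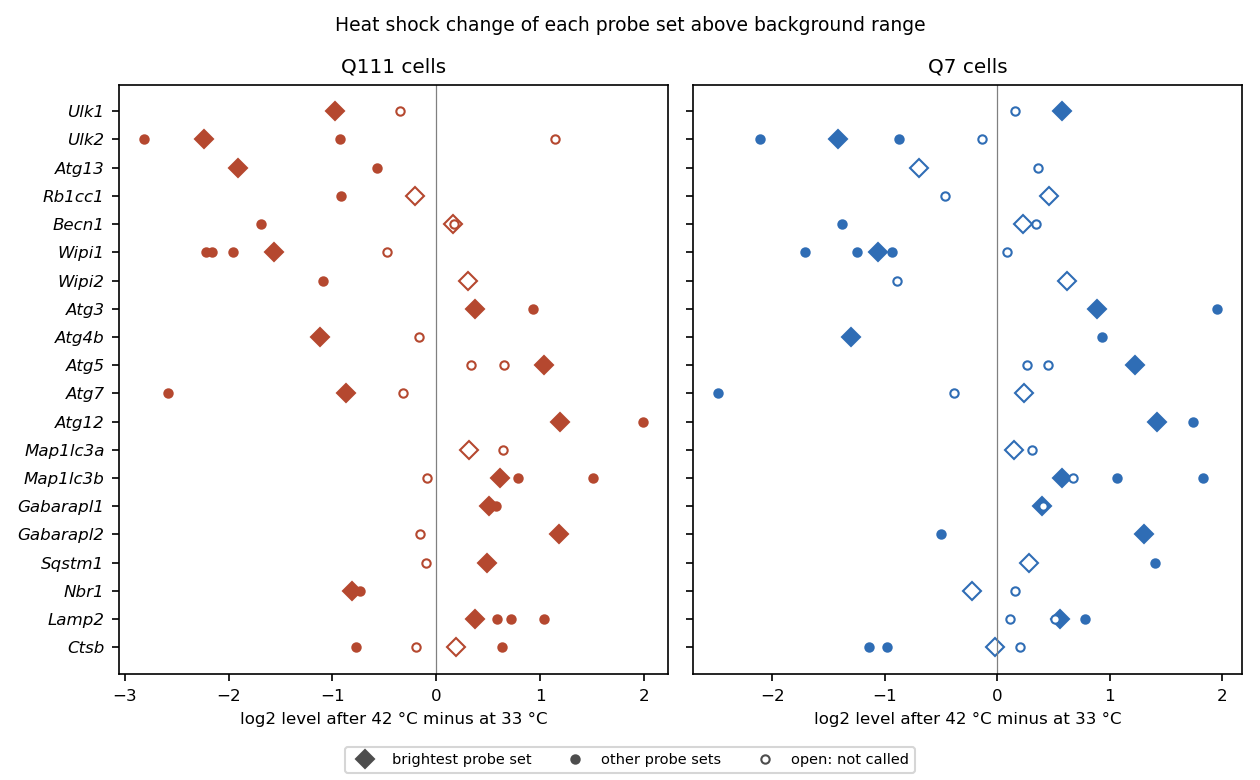
Heat shock change (log2, horizontal axis) of every probe set with a mean above background range, for the 20 members with more than 1, in Q111 cells (left) and Q7 cells (right). Diamonds are the brightest probe set of a gene, circles the others, and filled symbols are called. Atg4b and Gabarapl2 have symbols on both sides of 0 in Q7 cells.

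The test of the difference between the heat shock responses called 2 members, Ulk1 and Pik3c3, both with the lower change in Q111 cells. Of all genes 4.51% were called lower and 1.21% higher in that test. At 6.9% of members, this share is close to the background. For 22 of the 29 members the difference was negative, with a median of -0.23, beside -0.01 for all genes. Members in the range of level between 7 and 9 had a median difference of -1.03, where all genes in that range had -0.50.

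At 33 °C, before any heat shock, Q111 and Q7 cells differed in 4 members, all higher in Q111 cells: the Atg8 genes Map1lc3a and Gabarapl1 and the proteases Ctsb and Ctsl. Of all genes 5.11% were called higher and 5.68% lower. Gabarapl1 read 11.13, 11.02 and 11.04 on the untreated Q111 arrays, against 10.39, 10.41 and 10.53 on the untreated Q7 arrays, and Map1lc3a read 11.35, 11.58 and 11.26, against 10.84, 10.88 and 10.94 in Q7 cells. Neither gene's arrays overlapped between the lines. The differences were 0.62 for Gabarapl1 (SE 0.12, adjusted p = 0.0063) and 0.51 for Map1lc3a (SE 0.12, adjusted p = 0.0193). The second Gabarapl1 probe set was also called (0.55, adjusted p = 0.0478), and the second Map1lc3a probe set was not (0.62, adjusted p = 0.195).

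Ctsb read 12.71, 12.49 and 12.70 in Q111 cells at 33 °C, against 12.17, 12.25 and 12.20 in Q7 cells. Ctsl, a protease of the same class, read 12.74, 12.67 and 12.79 on the untreated Q111 arrays, against 12.07, 12.28 and 12.41 on the untreated Q7 arrays. Again no array of one line lay within the range of the other. The differences were 0.42 (SE 0.12, adjusted p = 0.0473) and 0.48 (SE 0.14, adjusted p = 0.0449), close to the threshold, and each call ended without any 1 of 10 arrays for Ctsb and of 9 for Ctsl (adjusted p up to 0.145 and 0.157). For Ctsb all 3 other probe sets had the same sign, and 2 of them were called, with 0.84 and 1.99. With the gene medians equal neither was called (adjusted p = 0.111 and 0.0689). With the replicate number as a block, 2 of the 4 members were called, Gabarapl1 and Map1lc3a. Wipi1 (0.78, adjusted p = 0.0564), Gabarap (0.41, adjusted p = 0.0541) and Lamp2 (0.43, adjusted p = 0.0721) had positive differences that were not called.

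Markers of other cells were compared with these line differences, since cathepsins are abundant in macrophages. Of 10 microglia and macrophage markers 2 had a mean above background range, and Aif1, Itgam, Adgre1, Tyrobp and C1qa were above it on no array. The log2 of the summed linear levels of that list ran between 8.81 and 9.29 in Q111 cells at 33 °C, against 8.38 to 8.57 in Q7 cells. Of its 10 genes 0 were called higher in Q111 cells there and 1 lower, with a median difference of 0.06. Of all genes 5.11% were called higher and 5.68% lower. Of 9 measured fibroblast markers 7 had a mean above background range, all but Thy1 and Lum. Over all 9 the same log2 sum at 33 °C was 15.25 to 15.32 in Q111 cells, against 14.82 to 14.89 in Q7 cells. In that comparison 1 of the 9 was called higher and 0 lower, with a median difference of 0.36. Both sums were higher in Q111 cells, and their part in the cathepsin differences was not tested.

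After heat shock the lines differed in 12 members. The same 4 genes were higher in Q111 cells, and 8 were lower, while 6.58% of all genes were called higher and 15.5% lower. With the gene median of every array set equal, which brought the median difference of all genes to 0.37, the split was 8 higher and 5 lower. Gabarapl1 differed by 0.73 (SE 0.12), Map1lc3a by 0.67 (SE 0.12), Ctsl by 0.66 (SE 0.14) and Ctsb by 0.63 (SE 0.12). Gabarapl1 read 11.62, 11.69 and 11.40 in heat-shocked Q111 cells, against 10.95, 10.76 and 10.82 in heat-shocked Q7 cells. Ctsb read 12.86, 12.86 and 12.75 there, against 12.29, 12.06 and 12.23 in heat-shocked Q7 cells. All 4 Ctsb probe sets were called higher, by 0.63 to 2.78. These arrays are not those of the 33 °C comparison, so the 4 genes differed between the lines in both sets of arrays. Both tests took their spread from all 12 arrays.

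The 8 members lower in heat-shocked Q111 than in heat-shocked Q7 cells were Tfeb (-1.48, with the Q111 mean in background range), Pik3c3 (-1.44), Ulk1 (-1.30), Atg7 (-1.17), Atg9a (-1.10), Rb1cc1 (-0.93), Uvrag (-0.90) and Atg3 (-0.58). None of these was called between the lines at 33 °C, where their differences lay between -0.27 and 0.25. Rb1cc1 read 10.29, 10.46 and 10.55 in heat-shocked Q111 cells, against 11.32, 11.41 and 11.37 in heat-shocked Q7 cells. Its second probe set was lower too (-1.09). For Atg3 a second probe set gave -1.62, but with the gene medians equal its difference was -0.20 and not called (adjusted p = 0.291). The same centring ended the calls of Rb1cc1 (-0.55, adjusted p = 0.0843) and Atg9a (-0.72, adjusted p = 0.0742). Atg9a was called here with an adjusted p of 0.0463, and its call ended without any 1 of 11 arrays. The heat-shocked Q111 and Q7 arrays also entered the heat shock comparisons, so these differences are not independent of the changes given above.

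**Figure D5:**
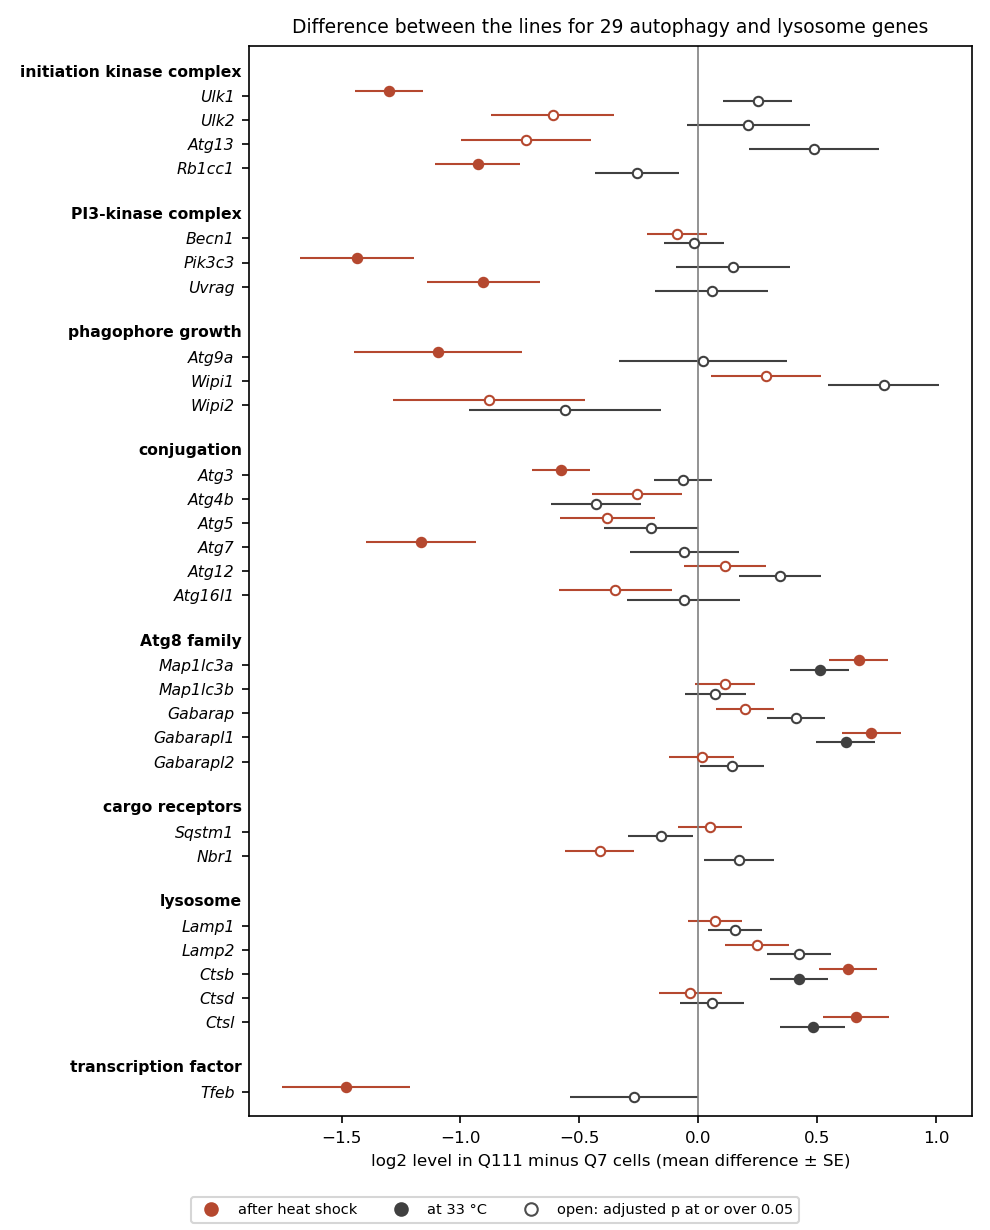
Difference between the lines for each measured member, as log2 level in Q111 minus Q7 cells on the horizontal axis, after heat shock (red) and at 33 °C (grey), grouped by role. Points are mean differences, bars are SE, and filled points are called. Map1lc3a, Gabarapl1, Ctsb and Ctsl are filled on the right for both, and the 8 members filled on the left are red alone.

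Further genes of the same machinery were counted from lists of the pathway. Of 23 other autophagy machinery genes 6 were called higher and 13 lower after heat shock in Q111 cells, with 5 higher and 3 lower in Q7 cells. For these and the following lists, the shares of all genes called were 20.0% higher and 28.2% lower in Q111 cells and 12.3% and 18.1% in Q7 cells. Snap29, a fusion protein of autophagosomes and lysosomes, rose in both lines (1.78 and 1.10), while Epg5, a tether in the same step, fell (-2.20 and -1.08). Of 2 other Snap29 probe sets 1 was called higher in both lines (1.67 and 1.54) and 1 in neither (0.62 and 0.40). The lipid transfer gene Atg2a fell in both (-2.15 and -1.11). Of 11 other selective autophagy receptors 1 was called higher and 2 lower in each line, and the lower ones were Calcoco1 and Wdfy3. Of 40 other lysosomal genes 6 were called higher and 19 lower in Q111 cells, with 2 higher and 11 lower in Q7 cells. The hydrolase genes Naglu (-3.01 and -2.65) and Glb1 (-2.14 and -2.54) fell in both, and the protease gene Ctsk rose (1.68 and 1.97). The Ctsk means at 33 °C, 4.31 in Q111 cells and 4.24 in Q7 cells, were in background range, which limits the size of its changes. At 33 °C 5 of these 40 were higher in Q111 cells, among them Ctsh (3.08, SE 0.34), a cathepsin, and Cln3 (2.47, SE 0.33). In that comparison 1 was lower (Ctsf, -0.83), where 5.11% and 5.68% of all genes were called higher and lower. The Cln3 mean in Q7 cells (4.47) and the Ctsf mean in Q111 cells (4.80) were in background range.

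Of 24 relatives of TFEB and regulators through mTORC1, AMPK and FOXO, 7 were called higher and 7 lower in Q111 cells, with 8 higher and 4 lower in Q7 cells. Rptor, a subunit of the mTORC1 kinase complex that restrains ULK1 and TFEB, fell in both (-2.45 in Q111 cells and -1.64 in Q7 cells). Rragd, a GTPase that brings that complex to lysosomes, rose by 2.00 and 1.14. At 33 °C Rragd was lower in Q111 cells (-1.41, SE 0.17), as was Ddit4 (-0.61, SE 0.16), and no other gene of the list was called there. These lists were chosen with earlier results of these data known, and their counts describe the genes listed.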

How the data were processed

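Total RNA of 12 samples was hybridised to Affymetrix mouse arrays, 1 array each. The authors deposited log2 levels from RMA, per the submitters' processing notes. Which RMA software, version and probe grouping they used is not given. RMA gives all arrays one distribution of probe values, so a shift shared by all genes would be removed. The table held 45101 probe sets. Of these 34945 named 1 gene through the platform annotation, and those naming several genes (932) or unnamed here (9160) were left out, with 64 controls. Symbols were checked against RefSeq by gene identifier (34741 probe sets matched), and 0 symbols changed. The brightest probe set stood for each of 18193 genes, of which 9010 had more than 1. Scanner files were not used here, so the number of arrays limits precision.

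limma 3.58.1 in R 4.3.3 estimated 4 group means from the 12 arrays together (residual df 8, prior df 3.23) and ran two-sided tests of 5 contrasts, with p-values adjusted by Benjamini-Hochberg across genes. Every probe set was also tested as its own row. The fit was tested on simulated data with known changes. Members and lists were chosen with earlier results of these data known. All members are named; of each further list the up to 2 genes with the largest change in each direction among called genes without overlap were named, in the heat shock comparisons and between untreated lines, and not all of these are described. Motifs and figures were made in Python 3.11.15 with pandas 2.3.3 and matplotlib 3.10.9.

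The labels number the replicates. Deviations from group means correlated between untreated arrays of the lines with the same number (r = 0.516, 0.402 and 0.577 across genes), so the numbers may pair these arrays. Between heat-shocked and untreated Q111 arrays such r were lower but all positive (0.097, 0.180 and 0.241). The remaining compared groups had such r of both signs. Replicates were not duplicates: 2 arrays of a group shared exact values at 6 to 45 probe sets, with an SD of differences between 0.32 and 0.77.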

Additional observations from a re-analysis of the deposited data

Results flagged for a closer look

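Ulk1 and Pik3c3 stand out because their responses to heat shock differed between the lines by the test of the difference itself. For Ulk1 the difference of changes, Q111 minus Q7, was -1.55 (SE 0.20, adjusted p = 0.00316), and its 3 heat-shocked arrays lay below those at 33 °C in Q111 cells and above them in Q7 cells. Over the other settings its difference ran from -1.69 to -0.50, and it was called in every one except with the second probe set (-0.50, adjusted p = 0.263). For Pik3c3 the difference was -1.58 (SE 0.34, adjusted p = 0.0228), with a fall in both lines and the larger one in Q111 cells. Its difference ran from -1.77 to -1.21 over the other settings. It was not called at an adjusted p under 0.01 or with the actin measure as a covariate (adjusted p = 0.0598). Without any 1 of 4 arrays it was not called either (adjusted p between 0.0534 and 0.0722). Genes of the same range shared the direction: the median difference of changes over all genes with levels between 7 and 9, where Ulk1 and Pik3c3 lie, was -0.50, and its part in these results was not tested.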

How the results depend on the processing

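The members called for heat shock in Q111 cells numbered 14 to 24 over the other settings and 17 to 19 with each array left out, beside 19. For heat shock in Q7 cells the range without each array was 11 to 17, beside 14; it was 9 at an adjusted p under 0.01 and 1 with the actin measure as a covariate, when 252 genes in all were called higher and 184 lower, against 2232 and 3293 without it. The difference between the responses, 2 members, ranged over 1 to 4 without each array: 4 without heat-shocked Q111 replicate 1 or heat-shocked Q7 replicate 2, and 1 without Q111 at 33 °C replicates 2 or 3 or heat-shocked Q7 replicates 1 or 3. It was 0 with the second brightest probe set, 6 with array weights, 1 at an adjusted p under 0.01 and 1 with the actin measure. The lines at 33 °C, 4 members, ranged over 1 to 6 without each array: 1 without Q7 at 33 °C replicates 1 or 2, and 2 without heat-shocked Q111 replicate 2, Q111 at 33 °C replicates 1 or 3, or heat-shocked Q7 replicates 1 or 3. That count was 2 with every probe set tested, 2 with the second brightest, 2 with only the groups compared, 7 with arrays centred on ribosomal protein genes, 8 after a further quantile normalization, 7 with array weights and 1 at an adjusted p under 0.01. With the replicate number as a block it was 2, and with a block among the untreated arrays alone, chosen after seeing the data, it was 4, with Gabarap called (adjusted p = 0.0345) and Ctsb not (0.0548); the block moved no other count of members by over 1.5 times. The lines after heat shock, 12 members, ranged over 10 to 14 without each array and gave 7 with the second brightest probe set, which 22 members have. Directions turned with the probe set alone. With the mean of all probe sets these were Atg7 (-0.54) for heat shock in Q7 cells, Becn1 (-0.32) in Q111 cells, and Ulk2 (0.59) and Sqstm1 (-0.87) for the lines after heat shock. With the second brightest they were Atg4b (0.93), Atg7 (-2.48) and Gabarapl2 (-0.50) in Q7 cells, Wipi2 (-1.09), Gabarapl2 (-0.15) and Sqstm1 (-0.10) in Q111 cells, and Sqstm1 (-1.79) for the lines after heat shock. Of the 19, 14, 2, 4 and 12 called members of the 5 comparisons, in the order given, 16, 10, 1, 1 and 10 were called without each array in turn. Calls that ended had adjusted p of up to 0.112 for Lamp2 (7 arrays) and 0.0904 for Atg3 (3) in Q111 cells, and 0.139 for Ctsd (10), 0.110 for Atg16l1 (4), 0.105 for Gabarapl1 (5) and 0.0906 for Pik3c3 (3) in Q7 cells. At 33 °C they had up to 0.0728 for Map1lc3a (3), and after heat shock up to 0.0746 for Uvrag (2) and 0.140 for Atg9a (11). The causes were not tested, except that the second brightest probe set leaves fewer members.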

Other observations

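Genes of ubiquitin handling and of the lysosomal proton pump were counted beside the members. Of 16 measured genes of ubiquitin handling 2 were called higher and 8 lower after heat shock in Q111 cells, with 3 higher and 7 lower in Q7 cells. Of all genes 20.0% were called higher and 28.2% lower in Q111 cells, and 12.3% and 18.1% in Q7 cells. Bag3, a co-chaperone that steers misfolded proteins to autophagy, rose by 1.60 (SE 0.21) in Q111 cells and by 1.01 (SE 0.21) in Q7 cells. Zfand2a, a heat- and arsenite-inducible zinc finger gene tied to the proteasome, rose by 1.498 and 1.27 (SE 0.18 each), and its 3 other probe sets above background range were called higher in both lines. Otub1, a deubiquitinase, was lower in both lines at its brightest probe set (-1.87 and -2.06), while its other probe set gave -0.11 and -0.02, not called. Hdac6, which links ubiquitinated proteins to transport on microtubules, fell in Q111 cells (-1.54), and Usp5, a deubiquitinase of free chains, fell in Q7 cells (-1.41).

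Subunits of the proton pump that acidifies lysosomes did not move one way. Of 15 measured V-ATPase genes 3 were called higher and 2 lower in Q111 cells, with 5 higher and 2 lower in Q7 cells, and the 3 of 15 higher in Q111 cells equal the share over all genes, 20.0%. Atp6v0b rose by 1.34 in Q111 cells and 1.37 in Q7 cells (SE 0.15 each), with both of its other probe sets called higher. Atp6v1f rose by 0.66 and 0.65. Atp6v0a1 was lower in both lines at its brightest probe set (-2.68 and -2.49, SE 0.36 each). Of its 2 other probe sets 1 was called lower in both lines (-2.65 and -2.30). The other was called lower in Q7 cells (-1.18) and not called in Q111 cells (-0.22).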
